A study of Mus musculus with 14 samples.

Results

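The comparison is between partial iPSCs, induced pluripotent stem cell clones arrested before full reprogramming, and the iPSCs into which 2i converted them, and it covers mRNA levels of all measured genes. The 2i condition is a culture medium that holds an inhibitor of the kinase MEK and an inhibitor of the kinase GSK3. The arrays were chosen by their labels: 2 untreated partial iPSC arrays and 2 arrays of iPSCs derived from the same clones in 2i, 4 of the 14 arrays of the series. Clones 2B1 and 5C5 are both female and C57BL/6, and each gave 1 untreated and 1 2i array. Untreated cells grew in medium with serum and leukemia inhibitory factor (LIF). Dose, length of the 2i exposure and passage number are not given in the labels, and neither are the reprogramming vectors. Each clone is 1 cell line, so clone and replicate are the same thing here, and medium and cell state changed together and cannot be told apart. Embryonic stem cells (ESCs) in LIF and serum served as a reference level: the Nanog-GFP line (male, C57BL/6) and EBRTcH3 (male, 129sv), 1 array each. Embryonic fibroblasts from Nanog-GFP transgenic C57BL/6 embryos of mixed sex gave 1 array. The sample label and the series description differ on the age of these embryos, so no age is given.

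As background, MEK passes growth factor signals to ERK, which pushes mouse pluripotent cells towards differentiation, and GSK3 limits beta-catenin. Blocking both holds mouse cells in the naive state, in which a network of transcription factors that includes Nanog and Sox2 is active and DNA methylation is low. Many genes of the germ line are silenced by DNA methylation in body cells and have some expression in naive cells.

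Values are log2 probe set signals, and a difference of 1 is 2-fold. Each gene is given by its brightest probe set, and array values are given for 2B1 and then 5C5. A gene is called, and is said to have risen or fallen, where the adjusted p from limma over all probe sets tested was below 0.05.

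The 4 marker genes separated the labelled states in both clones. Zfp42, a zinc finger gene of naive cells, read 2.57 and 2.38 untreated and 12.69 and 12.26 in 2i. Nanog read 3.85 and 4.36 untreated and 12.38 and 12.57 in 2i. Sox2 read 4.67 and 3.85 untreated and 12.71 and 12.73 in 2i. All 3 were near background in untreated cells and at ESC levels in 2i. Slc38a5, a transporter of glutamine and related amino acids, read 12.82 and 14.08 untreated and 5.04 and 6.02 in 2i, so the groups did not overlap for any of the 4, as for 63.7% of all genes tested. Slc38a5 was not called without 2i 2B1 (adjusted p = 0.0561), and the other 3 were called with any 1 array left out.

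Of 12663 genes tested, 703 (5.55%) were called: 412 rose (3.25%) and 291 fell (2.3%). Over 22693 probe sets, 4.74% were called, 2.63% higher and 2.12% lower. Differences of at least 2-fold in the same direction in both clones were seen in 6.96% of genes upward and 4.93% downward. All 703 called genes had the same sign in both clones. The call nearly forces this, since clones that disagree widen the spread that the difference is set against. The median difference was 2.35 among those that rose and -1.94 among those that fell. Over all genes tested, the median difference was 0.03, with 0.04 in 2B1 and 0.02 in 5C5. The 2i mean lay within 1 log2 unit of the ESC mean for 301 of the genes that rose and 229 of those that fell. Lower means under 3.8, the 25th percentile of the arrays, occurred in 62 of the risen and 14 of the fallen genes, and the size of those differences depends on the background. P-values rest on 1 array per clone and condition: without 2i 2B1, 34 genes were called higher and 8 lower, and without 2i 5C5, 28 and 8. The counts were 157 and 196 without untreated 2B1 and 183 and 145 without untreated 5C5. Dropping 1 ESC array, whichever it was, raised the counts to 801 and 501, the same as with the 4 compared arrays alone. An exact permutation test of 2 arrays against 2 cannot reach 0.05.

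**Figure D1:**
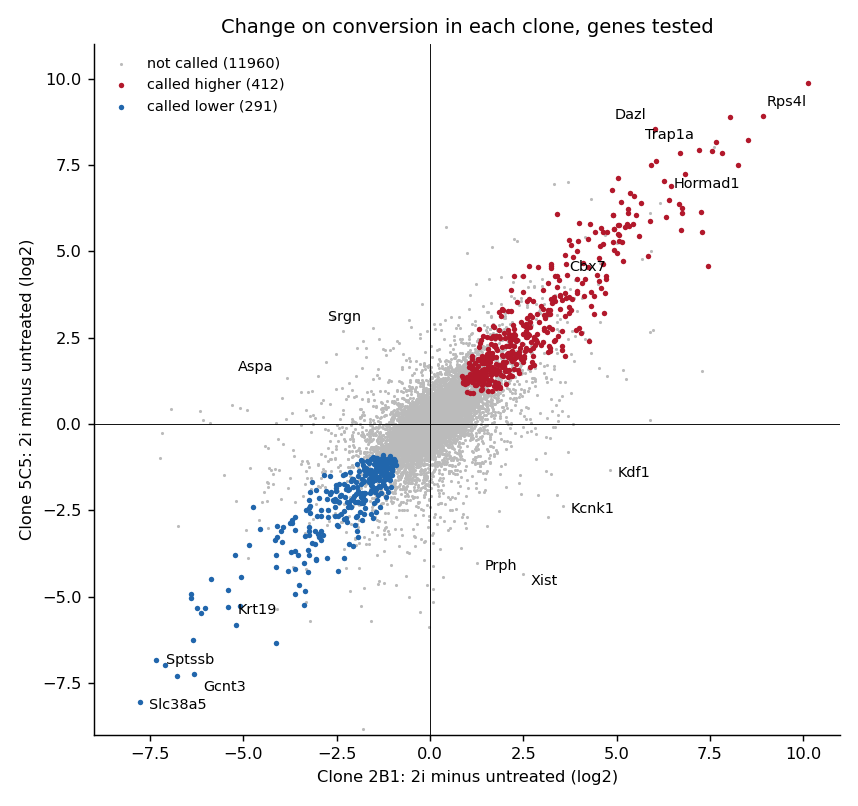
Log2 difference, 2i minus untreated, in clone 2B1 (x axis) and in clone 5C5 (y axis), 1 point per gene tested. The 412 genes called higher (red) and the 291 called lower (blue) lie in the quadrants where both clones have the same sign, and named grey genes such as Kcnk1 and Kdf1 moved in opposite directions.

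The 15 largest increases were not confined to pluripotency regulators. Beside Zfp42, Sox2, Nanog and the developmental pluripotency genes Dppa2, Dppa4 and Dppa5a, they held ribosomal protein paralogs (Rps4l, Rpl39l), X-linked testis genes (Trap1a, Mageb16), germ cell and oocyte genes (Dazl, Ooep), and Mymx, Aard and Znf41-ps. Mymx encodes a small membrane protein known for fusing muscle precursor cells. It read 3.94 and 3.77 untreated and 12.19 and 11.26 in 2i, a rise of 7.87 (SE 0.34, adjusted p = 0.00144). Its ESC values were 11.41 and 11.14, close to those in 2i. Ooep, a component of the maternal complex of the egg, read 5.32 and 4.20 untreated and 11.26 and 11.69 in 2i (difference 6.71, SE 0.44, adjusted p = 0.00464).

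The 15 largest decreases were of genes with various roles, among them the membrane, the surface coat and development. Gcnt3, St3gal6 and Hs3st3a1, enzymes that act on sugar chains and are described below, were among them. Sptssb, a subunit that sets the chain length made by serine palmitoyltransferase at the start of sphingolipid synthesis, read 10.32 and 10.59 untreated and 2.99 and 3.75 in 2i (difference -7.09, SE 0.31, adjusted p = 0.00144). Hbb-y, an embryonic beta globin, read 10.08 and 10.39 untreated and 2.99 and 3.42 in 2i (difference -7.03, SE 0.27, adjusted p = 0.00105). Hbb-y stood alone among red cell genes. The erythroid factors Gata1 and Klf1, the haem enzyme Alas2 and the other globins Hba-a1, Hba-x and Hbb-bh1 were left out as dim on these arrays. Clec2i, a lectin-like surface ligand, read 9.80 and 9.35 untreated and 3.57 and 4.01 in 2i. Nt5e, the ectoenzyme that makes adenosine from AMP, read 9.62 and 10.89 untreated and 3.49 and 5.43 in 2i (difference -5.80, SE 0.74, adjusted p = 0.0202), and 1 of its 2 further probe sets was near 0 (0.09). Arpp21, a phosphoprotein and RNA-binding protein of neurons, fell by 5.23 (SE 0.72, adjusted p = 0.0246), and Eya2, a transcriptional coactivator of homeobox factors, fell by 5.18 (SE 0.40, adjusted p = 0.00632). Of the 30 largest changes, the 10 increases of Zfp42, Rps4l, Sox2, Nanog, Trap1a, Mymx, Dppa2, Dppa5a, Mageb16 and Dppa4 and the 5 decreases of Sptssb, Hbb-y, Sbspon, Clec2i and Fgfbp1 were called with any 1 array left out.

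**Figure D2:**
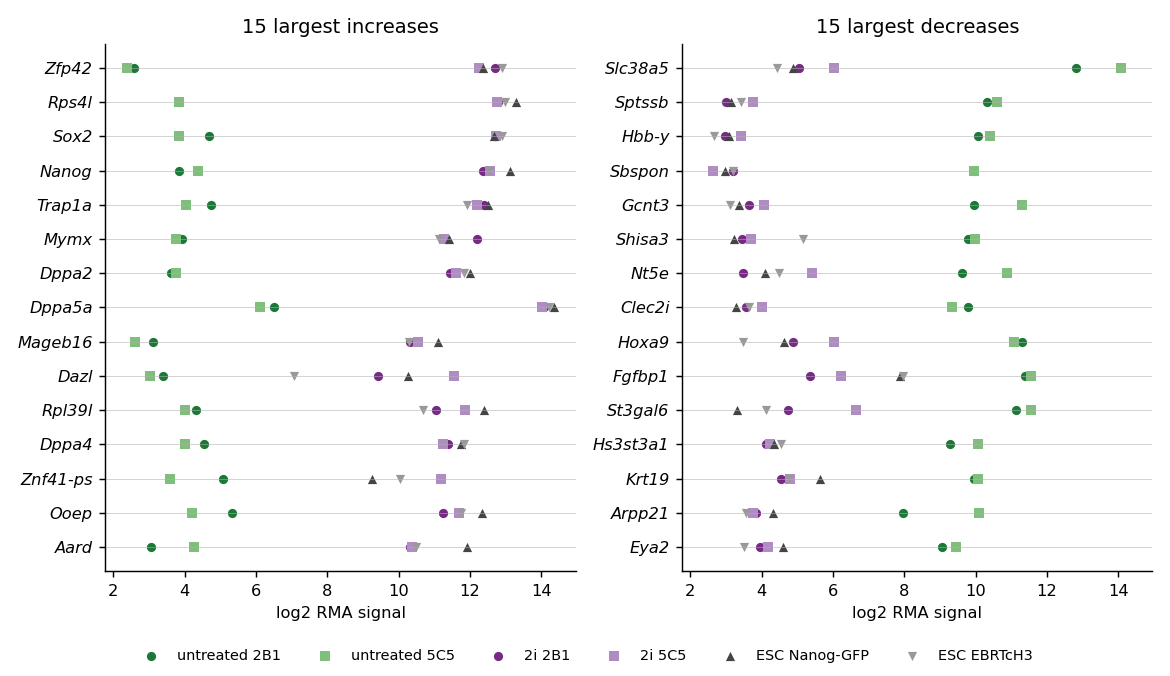
Log2 RMA signal of the 15 genes with the largest called increase (left) and decrease (right), with 1 point for each of the 2 untreated, 2 2i and 2 ESC arrays. The untreated points (green) and the 2i points (purple) do not overlap for any gene, as for 63.7% of all genes tested. The ESC points lie near the 2i points for most genes, with exceptions such as Dazl in EBRTcH3.

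Germ cell and meiosis genes were the functional group with the most calls. The promoters of 5 of them are shown because a sequence motif was found in many of the members that rose. Each is the 150 bases before the RefSeq start, read along the gene's strand (RefSeq, GRCm38.p6), with any CACGTG, and TCCCGC or its reverse complement GCGGGA, in capitals. CACGTG is an E-box bound by MAX and its partners, and TCCCGC is a site of E2F6. Both belong to a polycomb complex known for holding germ cell genes silent. Hormad1 (chr3:95559527-95559676, plus strand), Ddx4 (chr13:112652311-112652460, minus strand) and Taf7l (chrX:134476491-134476640, minus strand) hold CACGTG, Tex19.1 (chr11:121145993-121146142, plus strand) holds only TCCCGC, and Dazl (chr17:50293621-50293770, minus strand) holds neither in this window.
Hormad1: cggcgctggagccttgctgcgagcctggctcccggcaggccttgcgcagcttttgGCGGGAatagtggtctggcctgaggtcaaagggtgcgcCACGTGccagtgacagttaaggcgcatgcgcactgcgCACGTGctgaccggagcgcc
Ddx4: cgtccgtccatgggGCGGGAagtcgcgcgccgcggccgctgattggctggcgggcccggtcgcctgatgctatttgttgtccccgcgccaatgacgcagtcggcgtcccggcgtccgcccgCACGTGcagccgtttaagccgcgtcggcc
Taf7l: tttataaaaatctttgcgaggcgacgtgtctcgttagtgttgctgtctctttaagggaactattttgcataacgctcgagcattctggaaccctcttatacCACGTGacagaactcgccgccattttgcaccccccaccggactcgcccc
Tex19.1: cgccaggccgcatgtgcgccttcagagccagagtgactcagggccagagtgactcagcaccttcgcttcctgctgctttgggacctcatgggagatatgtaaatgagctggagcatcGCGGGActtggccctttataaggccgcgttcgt
Dazl: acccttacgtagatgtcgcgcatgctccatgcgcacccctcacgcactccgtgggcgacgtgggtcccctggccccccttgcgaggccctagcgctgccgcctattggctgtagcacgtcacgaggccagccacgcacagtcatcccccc

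Over 250 bases before the start and on both strands, CACGTG was found in 8 of the 16 risen germ cell genes that have a promoter entry (50%), in 3 of 16 tested members that were not called (18.8%) and in 2 of 8 dim members (25%). It was found in 10.1% of 10206 tested genes with an entry, in 11.6% of all genes that rose and in 7.73% of those that fell. For TCCCGC the shares were 37.5% of the 16 and 34% of tested genes, so this motif was about as frequent as elsewhere. The germ cell list was drawn up with earlier results of these data known, and a match of letters is not evidence of binding.

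Of 47 germ cell and meiosis genes with a probe set, 38 were tested, 20 rose and 0 fell, beside 3.25% and 2.3% of all genes tested. A positive difference was seen for 37 of the 38 (median 3.34), beside 52.4% of all genes tested. A gene at background in untreated cells enters this test through the arrays where it is high, so the test was also run without a filter. Then 17 of 47 rose and 0 fell, with a median of 2.62, beside 2.29% of 18193 genes higher and 1.61% lower, with a median of 0.02. Meiotic chromosome genes formed the largest part, with 10 of 17 tested called. Hormad1, which marks unsynapsed chromosome axes, read 2.29 and 2.46 untreated and 8.57 and 9.49 in 2i (difference 6.66, SE 0.70, adjusted p = 0.0135). Syce1, a central element of the synaptonemal complex that zips homologous chromosomes, read 3.51 and 3.16 untreated and 9.18 and 9.55 in 2i (difference 6.03, SE 0.50, adjusted p = 0.00719). Dmc1, the meiotic recombinase, read 4.84 and 4.88 untreated and 8.78 and 9.07 in 2i (difference 4.06, SE 0.20, adjusted p = 0.00173). In these 3 genes both untreated arrays were low and both 2i arrays were high. Their arrays did not overlap, as for 34.2% of all genes tested in the upward direction. Sycp3, a further axis protein, read 3.32 and 3.31 untreated and 9.26 and 8.31 in 2i but did not pass (adjusted p = 0.071).

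Among germ cell RNA-binding proteins, 5 of 10 tested rose. Dazl, which controls translation in germ cells, read 3.39 and 3.02 untreated and 9.43 and 11.55 in 2i (difference 7.29, SE 1.18, adjusted p = 0.0359). Its 2i arrays lay further apart than those of Ddx4, the germ cell helicase, which read 2.89 and 2.45 untreated and 6.87 and 7.75 in 2i (difference 4.64, SE 0.35, adjusted p = 0.00601). Piwil2, a PIWI protein that guards the germ line against transposons, rose by 3.56 (SE 0.50, adjusted p = 0.0266). Regulators included Prdm14, which read 3.66 and 3.94 untreated and 9.11 and 9.73 in 2i (difference 5.62, SE 0.61, adjusted p = 0.0148). Stra8, the gene that starts meiosis in response to retinoic acid, read 5.44 and 6.32 untreated and 11.13 and 11.10 in 2i and did not pass (adjusted p = 0.0568). Stra8 was also above its ESC mean of 7.57, and Taf7l, a testis form of a TFIID subunit, read 8.59 and 10.33 in 2i beside an ESC mean of 6.12. The dim members included Spo11, which cuts DNA to start recombination, and Nobox and Figla, factors of the oocyte. Of the 20 calls, 4 were made without 2i 2B1, 2 without 2i 5C5, 7 without untreated 2B1 and 8 without untreated 5C5. Dmc1 and Tex14 were called in all of these fits. With the clone as a block, 17 were called, and Stag3, Zp3 and Dnd1 were not (highest adjusted p = 0.0709).

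Testis genes of the X chromosome showed the same direction. Of 19 members of the Mage, Rhox, Xlr and related families with a probe set, 16 were tested. Of these, 6 rose and 0 fell (median 2.62), beside 3.25% of all genes tested higher and 2.3% lower. Without a filter 5 of 19 rose (median 2.25), beside 2.29% of all genes. Trap1a, a tumour antigen gene, read 4.73 and 4.05 untreated and 12.41 and 12.20 in 2i (difference 7.91, SE 0.33, adjusted p = 0.00125). Mageb16 read 3.11 and 2.62 untreated and 10.31 and 10.54 in 2i (difference 7.56, SE 0.35, adjusted p = 0.00152). Rhox13 and Rhox6, homeobox genes of the reproductive Rhox cluster, rose by 5.29 and 2.68 (SE 0.65 and 0.41, adjusted p = 0.0186 and 0.0324). Gm364 read 4.08 and 4.02 untreated and 9.45 and 10.71 in 2i, and 8.55 and 5.24 in the ESC lines, so it was above both lines in 2i. Trap1a and Mageb16 were called with any 1 array left out, and the other calls were lost in at least 1 such fit (adjusted p up to 0.289).

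X-linked genes and Xist gave different values in the clones. Xist, the noncoding RNA that coats the inactive X in female cells, was read by 3 probe sets. On one it read 2.98 in untreated 2B1 and 11.31 in untreated 5C5, then 2.78 and 4.95 in 2i. On another the values were 3.27 and 9.95, then 3.06 and 3.73. Both probe sets thus showed Xist high in untreated 5C5 alone, with a decrease of over 6 log2 units in that clone and background in 2B1. The brightest probe set of Xist read 5.44 and 13.49 untreated and 7.93 and 9.14 in 2i, so it had the opposite sign in 2B1, and its values in the male ESC lines were 8.42 and 9.03. Since the clones differed, Xist did not pass on any of the 3 (adjusted p = 0.528, 0.431 and 0.868). Jpx, a noncoding activator of Xist, fell in both clones, from 7.07 and 7.27 to 5.76 and 5.85 (difference -1.37, SE 0.20, adjusted p = 0.0292), but was not called with any 1 of the 4 arrays left out (adjusted p up to 0.254). Tsix was left out as dim.

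Of 420 X-linked genes tested, 23 rose (5.48%) and 8 fell (1.9%), beside 3.17% and 2.31% of 12189 autosomal genes. Their median difference was 0.24 in 5C5 and -0.01 in 2B1. No autosome had a median outside -0.06 to 0.14 in 5C5, so the X lay above all of them, while in 2B1 it lay within the autosomes' range of -0.05 to 0.13. In 5C5, 62.4% of X-linked genes had a positive difference, and in 2B1 49%. Between the 2i arrays, X-linked genes were higher in 5C5 than in 2B1 by a median of 0.18, with 72.6% above 0, beside a median of 0.0 on the autosomes. Between the untreated arrays the same median was -0.05. Leaving out the testis families gave 0.20 in 5C5 and -0.03 in 2B1. Between the male ESC lines, Nanog-GFP minus EBRTcH3, the X median was 0.26, with 66.4% of X-linked genes above 0. The autosomes had a median of 0.03 there, and the highest autosome 0.15. An X median of this size was thus also seen between male lines. These are values of single arrays, and the difference between the clones was not tested.

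**Figure D3:**
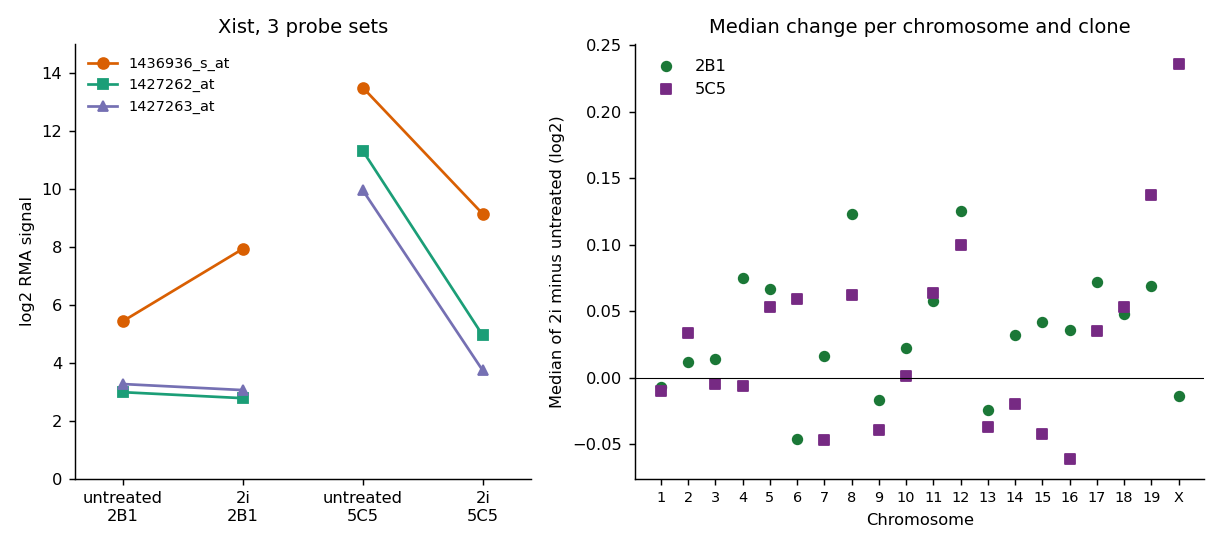
Left, log2 RMA signal of Xist on 3 probe sets in the untreated and 2i array of each clone. Right, median log2 difference (2i minus untreated) of the genes tested on each chromosome, with 2B1 as circles and 5C5 as squares. The X chromosome has the highest median in 5C5 (0.24) and a median near 0 in 2B1 (-0.01).

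A pair of ribosomal protein paralogs rose while the tested members of the standard set did not pass. Rps4l read 3.85 and 3.84 untreated and 12.78 and 12.76 in 2i (difference 8.93, SE 0.20, adjusted p = 0.000507). Rpl39l read 4.33 and 4.01 untreated and 11.04 and 11.86 in 2i (difference 7.28, SE 0.61, adjusted p = 0.00719). Both were high in fibroblasts (11.31 and 10.22) and in ESCs (means 13.15 and 11.55), so the untreated clones were the low samples. Rps4x, the X-linked form of the same subunit, read 14.07 and 14.11 untreated and 14.03 and 14.13 in 2i. The list of 13 tested genes had a median of -0.07. Rps4l was called with any 1 array left out, and Rpl39l was not called without 2i 2B1 or without 2i 5C5 (adjusted p up to 0.0922).

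A few imprinted and chromatin genes changed. Meg3, a noncoding RNA made from the maternal copy of the Dlk1-Dio3 cluster, read 5.76 and 5.64 untreated and 9.77 and 11.47 in 2i (difference 4.92, SE 0.66, adjusted p = 0.0231). Its ESC values were 11.26 and 12.46 and its fibroblast value 12.77, so here too the untreated clones were low. Igf2r, the maternally expressed receptor that clears IGF2, rose by 1.47 (SE 0.26, adjusted p = 0.0422; 0.0597 with the clone as a block). In all, 2 of 25 imprinted genes tested rose and 0 fell (median 0.49), beside 3.25% of all genes tested higher and 2.3% lower. Cbx7, the polycomb reader typical of pluripotent cells, read 5.38 and 4.89 untreated and 10.32 and 9.92 in 2i (difference 4.99, SE 0.39, adjusted p = 0.00638). Mtf2, a partner of polycomb complex PRC2, rose by 1.67 (SE 0.18, adjusted p = 0.015). Dnmt3l, the cofactor of new DNA methylation, read 4.26 and 4.42 untreated and 9.16 and 10.47 in 2i (difference 5.48, SE 0.62, adjusted p = 0.0158). Dnmt3b and Tet1, also listed with DNA methylation, rose by 2.16 and 2.27 (SE 0.36 and 0.27, adjusted p = 0.0387 and 0.0179). Macroh2a1, a histone variant of repressed chromatin, fell by 1.19 (SE 0.21, adjusted p = 0.0463; 0.0576 with the clone as a block). Of 44 chromatin modifiers tested, 5 rose and 1 fell, beside the same shares of all genes. Their median was -0.07 and turned to 0.04 when all probe sets of these genes were used. None of these calls was made without 2i 2B1 or without 2i 5C5 (adjusted p up to 0.317).

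**Figure D4:**
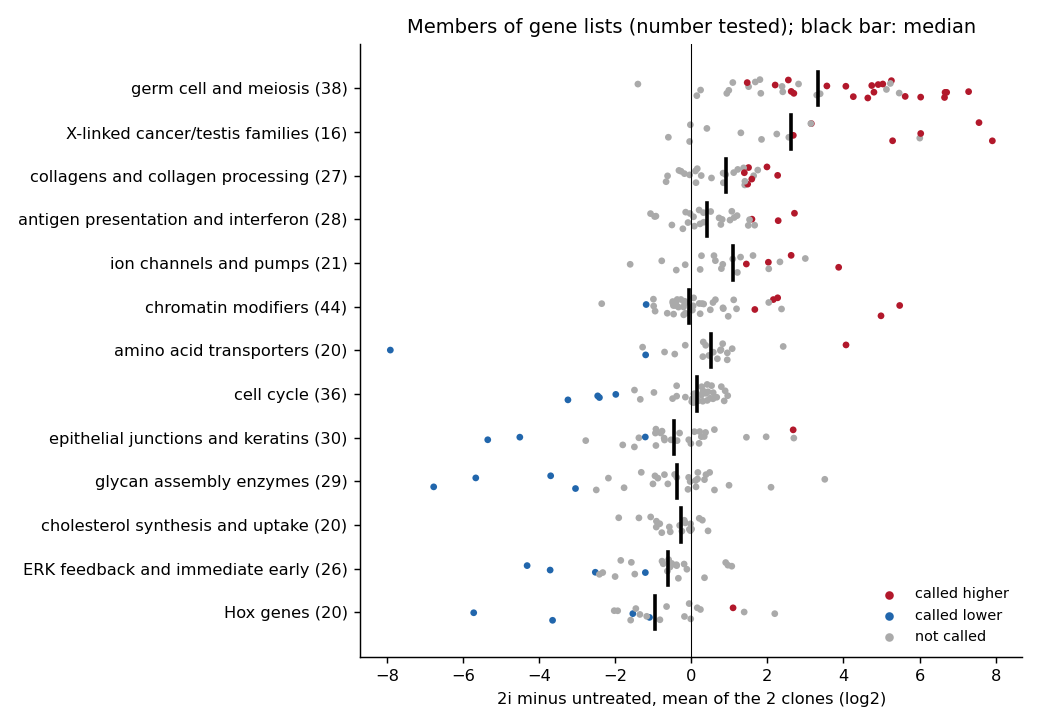
Log2 difference of each tested member of 13 gene lists (2i minus untreated, mean of the 2 clones), with the number tested in brackets and a black bar at the list's median. Germ cell genes have the highest median (3.34) and Hox genes the lowest (-0.96), and most members of the other lists are grey, that is, not called.

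Among enzymes that build the sugar coat of the cell, all that were called fell. Of 29 glycan assembly enzymes tested, 4 fell and 0 rose (median -0.38), beside 2.3% of all genes. Gcnt3, which adds branches to mucin-type chains, read 9.97 and 11.30 untreated and 3.65 and 4.07 in 2i (difference -6.77, SE 0.47, adjusted p = 0.00511). St3gal6, a sialyltransferase, read 11.14 and 11.57 untreated and 4.73 and 6.64 in 2i (difference -5.67, SE 0.67, adjusted p = 0.0176). Mgat4a, which starts a branch of N-glycans, read 9.60 and 10.93 untreated and 6.23 and 6.90 in 2i (difference -3.70, SE 0.51, adjusted p = 0.0246). Fut9, the fucosyltransferase that makes the SSEA-1 epitope, read 9.22 and 10.04 untreated and 6.36 and 6.81 in 2i (difference -3.05, SE 0.34, adjusted p = 0.015). These 4 act at different steps: branching, sialic acid and fucose. Hs3st3a1, which sulfates heparan chains, and the synthase of hyaluronan Has2 fell as well, by 5.51 and 3.78 (SE 0.30 and 0.33, adjusted p = 0.00243 and 0.00798). Gpc6, a glypican core protein, fell by 2.83, while the matrix proteoglycan Vcan rose by 1.85 (SE 0.30 and 0.29, adjusted p = 0.0138 and 0.0335; for Vcan 0.0616 with the clone as a block). Of the 4 glycan calls, 0 were made without 2i 2B1 and 1 without 2i 5C5.

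In lipid metabolism, single genes changed. Fabp3, a carrier of fatty acids in the cytosol, read 5.26 and 7.15 untreated and 12.71 and 11.72 in 2i (difference 6.01, SE 0.68, adjusted p = 0.0158). Cpt1a, which admits fatty acids to mitochondria for oxidation, read 8.83 and 8.38 untreated and 10.90 and 10.39 in 2i (difference 2.04, SE 0.36, adjusted p = 0.0438). Fasn, which makes fatty acids, read 10.67 and 10.72 untreated and 9.55 and 9.65 in 2i (difference -1.09, SE 0.19, adjusted p = 0.0444; 0.0616 with the clone as a block). With Sptssb, 2 of 25 genes of sphingolipid and fatty acid metabolism rose and 2 fell, beside 3.25% and 2.3% of all genes tested. Sptssb was called with any 1 array left out, and the other 3 were not (adjusted p up to 0.332). Of 20 genes of cholesterol synthesis and transport, 16 had a negative difference and 4 a positive one (median -0.28). Over all genes tested, 52.4% had a positive difference. By limma 0 of the 20 passed, beside 5.55% of all genes. An unadjusted p below 0.05 was seen for 3, beside 3115 of all 12663 genes tested. Idi1, an isomerase of the pathway, read 10.84 and 10.29 untreated and 9.53 and 8.84 in 2i (adjusted p = 0.174).

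Sugar and amino acid uptake changed at single transporters. The counts below stand beside 3.25% of all genes tested called higher and 2.3% lower. Slc2a3, the high-affinity glucose transporter GLUT3, read 11.99 and 11.80 untreated and 13.64 and 13.28 in 2i (difference 1.56, SE 0.22, adjusted p = 0.026). Slc2a1, or GLUT1, read 11.85 and 12.39 untreated and 10.97 and 10.57 in 2i but did not pass (adjusted p = 0.0677). Ldha, which makes lactate, read 13.03 and 12.70 untreated and 11.77 and 11.76 in 2i (difference -1.11, SE 0.20, adjusted p = 0.0476; 0.0682 with the clone as a block). The 20 genes of glycolysis and hexose uptake had a median of -0.44, with 1 risen and 1 fallen, and neither call was made with any 1 of the 4 arrays left out. Among 20 amino acid transporters, Slc38a4 read 6.44 and 6.24 untreated and 10.51 and 10.31 in 2i (difference 4.07, SE 0.35, adjusted p = 0.00789). Slc38a4 and Slc38a5 belong to the same family and moved in opposite directions. Slc7a6, a cationic amino acid exchanger, fell by 1.20 (SE 0.20, adjusted p = 0.0378; 0.0621 with the clone as a block). Gldc, the glycine-cleaving enzyme that feeds the folate cycle, read 6.97 and 7.52 untreated and 10.23 and 10.26 in 2i (difference 3.00, SE 0.36, adjusted p = 0.0179). Of 23 respiratory chain genes, only Cox7a1, a heart and muscle form of a complex IV subunit, passed (difference 4.46, SE 0.62, adjusted p = 0.0253). Slc38a4, Slc2a3, Gldc and Cox7a1 were not called without 2i 2B1 or without 2i 5C5 (adjusted p up to 0.228).

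Among collagens and their processing enzymes, all that were called rose. Of 27 genes of both kinds tested, 6 rose and 0 fell (median 0.90), beside 3.25% of all genes higher. Of 17 collagen chains tested 4 rose (median 1.22), and of 10 processing genes tested 2 rose (median 0.13). Without a filter 5 of 31 rose (median 0.84), beside 2.29%. Col6a3 read 8.29 and 7.52 untreated and 9.99 and 10.36 in 2i (difference 2.27, SE 0.40, adjusted p = 0.0444; 0.0525 with the clone as a block). Col6a2 read 7.81 and 7.36 untreated and 9.53 and 9.62 in 2i (difference 1.99, SE 0.30, adjusted p = 0.0302). Lox, which crosslinks collagen, read 7.51 and 7.15 untreated and 8.91 and 8.71 in 2i (difference 1.48, SE 0.22, adjusted p = 0.0287). Col1a2 and Col5a1 rose by 1.50 and 1.59 (adjusted p = 0.0412 and 0.041; 0.065 and 0.0512 with the clone as a block), and P4ha2, which hydroxylates collagen prolines, by 1.39 (adjusted p = 0.0233). All 6 were further from their ESC means in 2i than before, such as 5.05 for Col6a3 and 4.64 for Lox. Of 13 fibroblast markers with a probe set, 10 were tested and 9 had a positive difference (median 1.22), beside 52.4% of all genes tested. Postn and Col1a2 rose and 0 fell, and Col1a2 is also 1 of the 6 collagen calls. The summed log2 values of the 13, dim ones included, were 97.97 and 94.04 in the untreated and 105.89 and 105.91 in the 2i arrays. The defining markers Fap, Lum and Tcf21 were dim. Postn, a matrix protein of fibroblasts, read 5.16 and 5.06 untreated and 7.09 and 7.06 in 2i, beside 13.11 in fibroblasts (difference 1.96, SE 0.22, adjusted p = 0.0154). Fewer cells of a type and less RNA per cell cannot be told apart in such bulk samples, and the part of fibroblast-like cells in the collagen values was not tested. None of the 6 collagen calls was made with any 1 of the 4 arrays left out (adjusted p up to 0.299).

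Among laminins, integrins and basement membrane genes, all that were called fell. Lama4 read 10.24 and 10.89 untreated and 6.44 and 6.62 in 2i (difference -4.03, SE 0.35, adjusted p = 0.00752), and Lama5, the laminin chain of early embryos, fell by 2.02 (SE 0.34, adjusted p = 0.0396). Itgb4, the integrin of hemidesmosomes, read 8.60 and 9.48 untreated and 6.39 and 6.65 in 2i (difference -2.52, SE 0.34, adjusted p = 0.0233). Thbs1, an adhesive glycoprotein, fell by 1.72 (SE 0.24, adjusted p = 0.0247). These were the 4 called of 31 integrin, laminin and basement membrane genes, beside 2.3% of all genes tested lower and 3.25% higher. The median of the 31 was 0.09 (-0.06 with all probe sets). Without 2i 2B1 or without 2i 5C5, 0 of the 4 were called. Among proteases, Mmp13, a collagenase, fell by 2.61, and Adam8 rose by 1.76 (SE 0.29 and 0.30, adjusted p = 0.0151 and 0.0394; for Adam8 0.0601 with the clone as a block).

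Epithelial genes had different medians in the clones, and the difference was not tested. Of 30 epithelial genes tested, 3 fell and 1 rose, beside 2.3% and 3.25% of all genes. The median was -0.02 in 2B1 and -0.96 in 5C5. Krt19, a keratin of simple epithelia, read 9.97 and 10.08 untreated and 4.55 and 4.78 in 2i (difference -5.35, SE 0.33, adjusted p = 0.00365). Krt18, also of simple epithelia, read 3.63 and 3.71 untreated and 6.12 and 6.58 in 2i (difference 2.68, SE 0.28, adjusted p = 0.0129). Perp, a desmosome protein and p53 target, read 12.25 and 11.92 untreated and 7.03 and 8.12 in 2i (difference -4.51, SE 0.60, adjusted p = 0.023). Jup, or plakoglobin, fell by 1.21 (SE 0.19, adjusted p = 0.0337; 0.0538 with the clone as a block). Cdh1, the epithelial cadherin, read 7.40 and 11.87 untreated and 11.10 and 11.07 in 2i and did not pass (adjusted p = 0.602), since only 2B1 was low before conversion. The keratins Krt18 and Krt19, often found together in simple epithelia, thus changed in opposite directions in both clones. None of the 4 epithelial calls was made without 2i 2B1 or without 2i 5C5 (adjusted p up to 0.285).

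Of 20 Hox genes tested, 4 fell and 1 rose, beside 2.3% and 3.25% of all genes. All 7 A cluster genes tested had negative differences and 4 fell, while in the B, C and D clusters 0 fell by limma and Hoxb2 rose. Over all genes tested, 52.4% had a positive difference. The D cluster had a median of -2.49 in 2B1 and 0.65 in 5C5, and the A cluster -1.46 and -2.36. A difference between clusters was not tested. Hoxa9 read 11.30 and 11.07 untreated and 4.89 and 6.03 in 2i (difference -5.72, SE 0.52, adjusted p = 0.00927). Hoxa10 read 8.30 and 8.67 untreated and 4.69 and 4.98 in 2i (difference -3.65, SE 0.22, adjusted p = 0.00365). Hoxa7 fell by 1.54 and Hoxa2 by 1.10 (adjusted p = 0.0178 and 0.0432), and Hoxb2 rose by 1.10 (adjusted p = 0.0411). Blocked by clone, Hoxa2 and Hoxb2 were not called (adjusted p = 0.0604 and 0.0661). Hoxd9 of the D cluster differed between the clones, with 9.10 in untreated 2B1, 5.74 in untreated 5C5, and 5.85 and 6.65 in 2i. Tbx15 and Tbx18, T-box factors of mesenchyme, fell by 3.66 and 2.61 (SE 0.37 and 0.41, adjusted p = 0.0117 and 0.0345). None of these Hox or T-box calls was made without 2i 2B1 or without 2i 5C5 (adjusted p up to 0.332).

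Of 26 tested genes of the ERK pathway, on which the MEK inhibitor acts, 4 fell (median -0.61), beside 2.3% of all genes. The difference was negative for 22 and positive for 4, beside 52.4% positive over all genes tested. Egr3, an immediate early transcription factor, read 9.19 and 10.46 untreated and 5.81 and 5.21 in 2i (difference -4.32, SE 0.46, adjusted p = 0.014), and its other probe set was near 0 (0.03). Myc read 11.96 and 12.35 untreated and 8.25 and 8.64 in 2i (difference -3.71, SE 0.24, adjusted p = 0.00456). Its untreated values were above the ESC mean of 7.87 and the fibroblast value of 8.80. The reprogramming vectors are not given, and whether they add to the Myc signal was not tested. Dusp5, a phosphatase that resets ERK, read 10.15 and 11.08 untreated and 8.19 and 7.98 in 2i (difference -2.52, SE 0.34, adjusted p = 0.023). Fosl2 fell by 1.21 (SE 0.20, adjusted p = 0.0385; 0.0538 with the clone as a block). In ESCs, grown in LIF and serum, the means of Egr3, Dusp5 and Fosl2 were 3.04, 7.15 and 3.28. These lay below the 2i means of 5.51, 8.09 and 7.41. The part of the inhibitor in the decreases was not tested. Well-known feedback genes did not pass. Dusp6 read 10.38 and 10.98 untreated and 10.07 and 9.75 in 2i (adjusted p = 0.585), and Spry2 read 9.19 and 9.51 untreated and 9.83 and 9.56 in 2i (adjusted p = 0.536). Fos read 13.25 and 13.50 untreated and 11.41 and 11.64 in 2i, still above its ESC mean of 7.52 (adjusted p = 0.256). The 4 calls were lost without 2i 2B1 and without 2i 5C5 (adjusted p up to 0.298).

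The other pathway that 2i acts on, through GSK3, showed 2 called increases in 25 tested Wnt genes (median -0.01), beside 3.25% of all genes. Sfrp2, a secreted inhibitor of Wnt, rose by 2.43 (SE 0.26, adjusted p = 0.0139). Axin2, a direct target of beta-catenin, read 5.65 and 5.51 untreated and 6.65 and 6.88 in 2i (difference 1.18, SE 0.20, adjusted p = 0.0408; 0.0643 with the clone as a block). Neither was called with any 1 of the 4 arrays left out (adjusted p up to 0.319). Of 38 Eph, semaphorin and Notch genes tested, 4 fell, 0 rose and 34 were not called, beside 2.3% of all genes lower. Hes1 and Hes6, transcription factors of the Notch family, fell by 1.50 and 1.48 (SE 0.23 and 0.18, adjusted p = 0.0321 and 0.018; for Hes1 0.0525 with the clone as a block). Efna5, an ephrin ligand, read 9.99 and 9.39 untreated and 6.93 and 7.48 in 2i (difference -2.49, SE 0.31, adjusted p = 0.02). Ntn4, a netrin of basement membranes, fell by 2.59 (SE 0.41, adjusted p = 0.0345). Fgfbp1, a carrier that releases FGF from the matrix, read 11.38 and 11.55 untreated and 5.34 and 6.21 in 2i (difference -5.68, SE 0.32, adjusted p = 0.00291), below its ESC values of 7.88 and 7.95. Pdgfc, a growth factor of mesenchyme, rose by 1.78 (SE 0.25, adjusted p = 0.0248). Of these genes, only Fgfbp1 was called with any 1 array left out.

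Among cell cycle genes, all that were called fell. Cdkn2a, which encodes p16 and p19Arf, read 8.49 and 8.34 untreated and 4.79 and 5.55 in 2i (difference -3.24, SE 0.29, adjusted p = 0.00893). Cdkn1a, the p53-induced inhibitor p21, read 12.58 and 12.61 untreated and 9.83 and 10.43 in 2i (difference -2.46, SE 0.31, adjusted p = 0.0194). Rb1 read 11.39 and 10.63 untreated and 8.24 and 8.95 in 2i, and E2f2 read 8.28 and 8.44 untreated and 6.84 and 5.90 in 2i. Both fell (differences -2.42 and -1.99, adjusted p = 0.0308 and 0.0437) but did not pass when the clone was a block (adjusted p = 0.0626 and 0.0608). These were the 4 called of 36 cell cycle genes, and 0 rose, beside 2.3% of all genes lower and 3.25% higher. All 11 replication genes had positive differences, beside 52.4% of all genes tested, and 0 passed the limma test. An unadjusted p below 0.05 was seen for 5 of them, beside 3115 of all 12663 genes tested. Mcm10 had the lowest p of them, reading 9.63 and 9.55 untreated and 10.61 and 10.48 in 2i (adjusted p = 0.0623). Among 14 p53 targets tested, Perp, Btg2 (difference -3.15, SE 0.56, adjusted p = 0.0451) and Plk2 (-1.38, SE 0.23, adjusted p = 0.0391; 0.0627 with the clone as a block) fell. None of the cell cycle calls was made without 2i 2B1 or without 2i 5C5, and none of the p53 target calls with any 1 of the 4 arrays left out.

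Among interferon targets and ion channels, all that were called rose. Of 28 genes of antigen presentation and interferon response, 3 rose and 0 fell, beside 3.25% and 2.3% of all genes. All 3 were among the 18 interferon targets. Usp18, which damps interferon signalling, read 7.50 and 6.72 untreated and 10.06 and 9.57 in 2i (difference 2.71, SE 0.39, adjusted p = 0.0275). Ifit1, which binds foreign RNA, read 6.97 and 6.30 untreated and 8.82 and 9.01 in 2i (difference 2.28, SE 0.29, adjusted p = 0.0194), and Ifi27 rose by 1.59 (SE 0.24, adjusted p = 0.0316). Their ESC means were 3.52, 3.12 and 5.89, so these genes too were further from the ESC level in 2i. The median over the 18 targets was 0.39 in 2B1 and 1.45 in 5C5. Of 21 ion channels and pumps tested, 4 rose and 0 fell (median 1.09), beside the same shares of all genes. Gjb5, a gap junction connexin, read 4.57 and 4.25 untreated and 8.51 and 8.06 in 2i (difference 3.87, SE 0.49, adjusted p = 0.0194). Atp1b1, a subunit of the sodium pump, read 8.57 and 8.68 untreated and 11.35 and 11.14 in 2i (difference 2.62, SE 0.26, adjusted p = 0.0109). Kcnk5 and Trpv2 rose by 2.03 and 1.45 (SE 0.25 and 0.23, adjusted p = 0.018 and 0.0335). Calls of interferon targets and channels were lost without 2i 2B1 and without 2i 5C5 (adjusted p up to 0.271), and the interferon calls also without untreated 5C5.

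Outside endothelium, markers of other cell types were mostly dim or not called. Of the tested markers of macrophages and blood, endoderm, trophoblast, muscle and early cleavage embryos, 0 of 22 were called by limma. Over all genes tested, 5.55% were called. Of the 22, 11 had an unadjusted p below 0.05, beside 3115 of all 12663 genes tested. Ptprc, the pan-leukocyte marker, was dim. Pecam1, an adhesion molecule of endothelium that pluripotent cells also express, read 3.97 and 3.90 untreated and 9.03 and 9.21 in 2i (difference 5.19, SE 0.21, adjusted p = 0.00108). Vwf rose by 2.64 (SE 0.22, adjusted p = 0.00719) and Tek, an angiopoietin receptor, fell by 3.57 (SE 0.62, adjusted p = 0.0428; 0.0637 with the clone as a block). Of 7 endothelial markers with a probe set, 4 were tested, 2 rose and 1 fell, and Cdh5, Emcn and Tie1 were dim. Tubb3, a tubulin of neurons, rose by 2.85 (SE 0.37, adjusted p = 0.0217) and was the only called gene of 6 tested neural markers. Pecam1 was called with any 1 array left out.

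The clones had closer values in 2i than before. Among the genes tested, 1346 differed at least 2-fold between the untreated clones (558 higher in 2B1, 788 in 5C5), and 219 did so between the 2i arrays. Of the 219, 74 were also apart before, 56 in the same direction and 18 in the other. The median absolute difference between the clones was 0.30 over all genes tested when untreated and 0.17 in 2i. At 8-fold or more, 151 genes were apart before and 4 in 2i, and the ESC lines, which differ in strain, had 2002 genes at least 2-fold apart. The difference in spread was not tested, with 1 array per clone and condition.

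For 75 genes (0.592%) the clones moved at least 2-fold in opposite directions. Kcnk1, a potassium channel, read 3.67 in untreated 2B1 and 10.10 in untreated 5C5, and 7.23 and 7.74 in 2i. Its other probe set moved the same way in each clone, by 2.00 in 2B1 and by -2.58 in 5C5. Kdf1, a regulator of keratinocyte differentiation, read 2.26 and 8.85 untreated and 7.08 and 7.52 in 2i. Epcam, an epithelial adhesion molecule, read 8.08 and 11.26 untreated and 9.43 and 9.89 in 2i, though its other probe set was near 0 in 5C5 (-0.01). In each, the 2i values of the clones were close together and lay between the untreated ones. Tgm2, a protein crosslinking enzyme, ran the other way, with 11.06 in untreated 2B1 and 6.04 in untreated 5C5, and 8.74 and 8.72 in 2i. Genes picked for opposite directions in the clones tend to end between the untreated values, so these examples follow in part from the choice. Over the 1346 genes, both 2i arrays lay between the untreated values for 582 (43.2%). These genes were picked by a wide gap between the same untreated values, which favours such a position. The share over all genes was not computed.

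**Figure D5:**
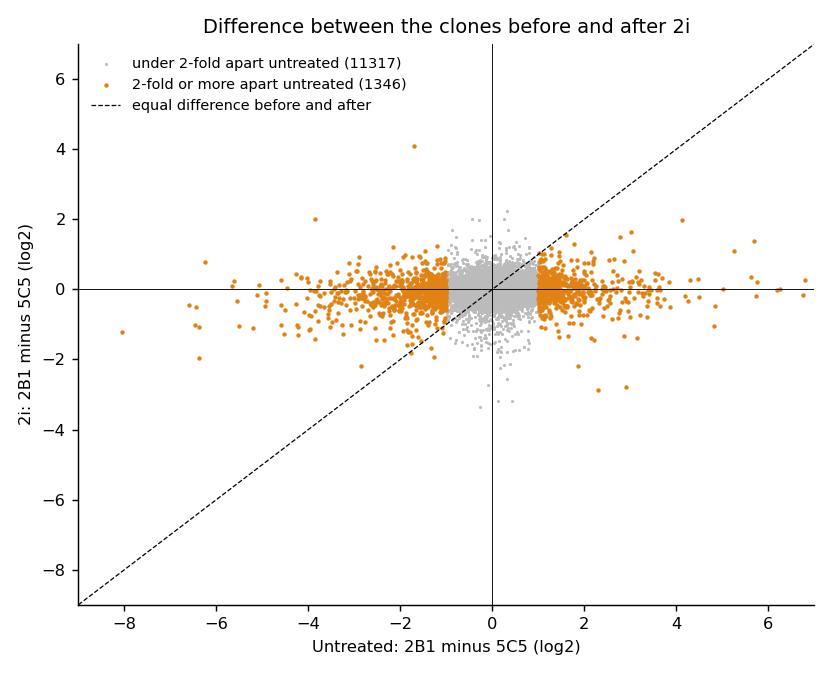
Log2 difference between clones 2B1 and 5C5 in untreated cells (x axis) and in 2i (y axis), 1 point per gene tested, with the 1346 genes at least 2-fold apart when untreated in orange. Points spread widely along the x axis and stay near 0 on the y axis, and the dashed line marks where the difference would be equal before and after.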

How the data were processed

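Total RNA was labelled as biotinylated cRNA and hybridised to Affymetrix expression arrays, 1 per sample, per the labels. The authors deposited log2 values made with RMA and the affy package, per the submitters' processing notes, with versions and settings not given in the sources used here. RMA corrects background, normalizes quantiles and summarises probes. Arrays fell into 2 blocks of 7 with means of 6.09 and about 5.87, and all arrays compared here lie in the first. The number of arrays limits the precision, and so does signal near background.

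Of 45101 probe sets, 34945 had exactly 1 gene symbol, 932 had several and 9160 had none, and 34741 gene identifiers matched RefSeq (GRCm38.p6). Probe sets with at least 2 of 14 arrays at 5.42 or more, the median of the table, were tested (22693). limma 3.58.1 in R 4.3.3 (lmFit, eBayes) was fitted to the 2 untreated, 2 2i and 2 ESC arrays, with 3 residual degrees of freedom, two-sided, with Benjamini-Hochberg adjustment over all probe sets. ESC arrays enter through the shared spread. The script was tested on simulated data. The clone pairs the untreated and 2i arrays, since both come from the same cell line, and their deviations from the group means had a correlation of 0.12 over probe sets. The clone as a block was an alternative.

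The comparison, the 35 functional gene lists and the 9 marker lists were chosen with earlier results of these data known, so no list was tested. Genes were named by rule: the 15 largest called changes in each direction, up to 5 called members of a list per direction, members that moved over 1 log2 unit in opposite directions in the clones, the 4 markers and called members of marker lists. Not every gene named by this rule is described in the text. Other genes named, among them uncalled members, P4ha2, Prdm14, Piwil2, Dmc1, Ddx4, Rhox6, Rps4x and the genes of the clone comparison, were chosen after their values were seen. Alternatives changed the arrays, filter, normalization, intensity trend and probe sets per gene.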

Additional observations from a re-analysis of the deposited data

Results flagged for a closer look

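For 15 members of the functional lists, each clone moved more than 1 log2 unit and the directions were opposite. With 1 array per clone and condition, the difference between the clones was not tested. Values are 2i minus untreated, first in 2B1 and then in 5C5. Among transporters and channels, they were -1.80 and 2.40 for Slc7a2, 3.42 and -2.04 for Slc6a15, and 3.56 and -2.37 for Kcnk1. Among adhesion and keratin genes, they were 1.35 and -1.37 for Epcam, 2.38 and -1.70 for Cldn7, 1.54 and -2.97 for Krt8, and 3.16 and -2.70 for Lama3, a laminin chain. The other probe set of Kcnk1 had 2.00 and -2.58, the same signs in each clone. That of Epcam had 0.66 and -0.01, so it did not show the decrease in 5C5. The glycan enzyme St6galnac2 had 1.90 and -1.21, and the protease Adam19 had -1.06 and 2.14. Among patterning genes, Hoxb13 had -1.36 and 1.33, Hoxd13 had -1.73 and 2.20, and Lhx2 had 1.13 and -1.50. Ifitm1, an interferon-induced membrane protein, had -1.11 and 1.26, the cytokine receptor Il6ra had -1.20 and 2.13, and the imprinted gene Phlda2 had 3.11 and -1.38.

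The medians of 7 lists also had opposite signs in the clones, again untested. They were 0.08 and -0.01 for the respiratory chain, -0.11 and 0.12 for contractile and actin genes, and 0.16 and -0.25 for Wnt genes. For Hox genes they were -1.41 and 0.03, and for other homeobox and T-box factors -0.18 and 0.09. For apoptosis and p53 targets they were -0.88 and 0.03, and for purine enzymes and nucleotide salvage -0.15 and 0.15.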

How the results depend on the processing

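With the 4 compared arrays alone, 1149 probe sets were called higher and 845 lower, or 801 and 501 genes, in place of 596 and 480 probe sets and 412 and 291 genes; leaving out either ESC array gave the same counts. Testing 1 probe set per gene gave 449 higher and 311 lower. Leaving out 1 array at a time gave 33 to 1149 probe sets higher and 13 to 845 lower, or 28 to 801 and 8 to 501 genes, and the lone array of a group is then assumed to vary like the other groups. With the clone as a replicate block, 817 and 559 probe sets or 570 and 332 genes were called, and 333 and 205 of the genes called without it were called again. Of 114 named called genes, 92 were called with that block and 16 in every fit that left out 1 array (highest adjusted p 0.332). Centring on the array median gave 385 and 311 genes, quantile normalization 416 and 285, no filter 416 and 292, and the intensity trend 420 and 293; the shift of the array medians was 0.05. List medians changed sign under centring for 3 of 35 lists, under quantile normalization for 1, and with all probe sets for 4. They did so for 4 lists without untreated 2B1 and for 7 without untreated 5C5, among them epithelial genes (to 0.14) and Wnt genes (to 0.22), and for 1 without either 2i array in turn. Signal near background limits 62 of the risen and 14 of the fallen genes.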

Other observations

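Among the called increases were germ cell forms of housekeeping genes, a group put together after the values were seen. The paralogs Rps4l and Rpl39l rose too but were also high in fibroblasts (11.31 and 10.22), so that name does not hold for them. The group included Slc25a31, the germ cell carrier of ADP and ATP (difference 5.14, SE 0.65, limma adjusted p = 0.0196), and Pdha2 of pyruvate dehydrogenase (4.53, SE 0.46, adjusted p = 0.0119). It also held Cyct, the testis cytochrome c (4.39, SE 0.34, adjusted p = 0.00648), and Timm8a2 of mitochondrial import (4.25, SE 0.58, adjusted p = 0.0242). The proteasome subunit Psma8 read 3.51 and 3.42 untreated and 8.80 and 9.20 in 2i (difference 5.53, SE 0.22, adjusted p = 0.00108). The helicase D1Pas1 and the RNA-binding protein Rbmxl2 rose by 3.19 and 4.14. Their widely expressed counterparts Slc25a5, Pdha1, Cycs, Timm8a1, Psma7 and Ddx3x had differences of -0.04, -0.91, -0.10, 0.10, -0.11 and 0.24, and none was called. Rbmx, the counterpart of Rbmxl2, fell by 2.13 (SE 0.27, adjusted p = 0.0205), and Taf7, that of Taf7l, rose by 2.61 (SE 0.31, adjusted p = 0.0177), so the pairs did not all behave alike. Of these called genes, Psma8 and Rps4l were called with any 1 array left out, while Slc25a31, Timm8a2 and Taf7 were called in none of those 4 fits (adjusted p up to 0.194).

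The metallothioneins Mt1 and Mt2 read 10.28 and 11.55, and 9.41 and 11.14, in untreated cells and 12.70 and 12.41, and 13.20 and 13.17, in 2i, and neither passed (adjusted p = 0.171 and 0.0634). Eif2s3y, a Y-linked gene, read 2.74 to 2.95 on all 4 arrays of these female clones and 9.34 and 10.21 in the male ESC lines.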
